A study of Caenorhabditis elegans with 24 samples.

Results

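Changes between 12 and 24 h of auxin in the Caenorhabditis elegans intestine under depletion of RNA polymerase I (Pol I) were read from 8 of the 24 libraries of the series. These libraries were chosen by the strain and time in their labels: the 4 Pol I-AID libraries at 24 h of auxin and the 4 at 12 h. The groups also differ in time on auxin and in adult age, which the comparison alone cannot tell apart from loss of Pol I. Pol I-AID animals (strain DCW180 for replicate 1, DCW447 for replicates 2 to 4) carry a degron and GFP on RPOA-2, a large catalytic subunit of Pol I, together with the auxin receptor TIR1 fused to mRuby (ieSi57). The promoter of eft-3, a gene active in many somatic tissues, drives that receptor, so depletion was not limited to the intestine although only the dissected intestine was sequenced. DCW180 had been outcrossed 1 time and DCW447 3 times. The TIR1 control (DCW143 and DCW448, outcrossed 1 and 3 times) carries the same receptor without the degron and was treated in the same way. Animals grown from synchronized larvae were moved at day 1 of adulthood, and the 12 h and 24 h groups of both strains were on 1 mM auxin while the 0 h groups were on 0 mM. Each of the 6 groups of strain and time held 4 biological replicates, and a replicate is named below by its number in the labels.

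Pol I transcribes the precursor of the large ribosomal RNAs, and its loss stops the supply of new ribosomes while ribosomes already made persist for a time. In the adult hermaphrodite the intestine is at once the gut, the main store of fat, the main site of detoxification and the source of yolk, which it secretes into the body cavity. Genes for yolk, for the endoplasmic reticulum (ER), for lipid synthesis and for defence are therefore prominent in its messenger RNA. Auxin makes TIR1 hand the tagged protein to the proteasome, so the degron acts on the RPOA-2 protein and the rpoa-2 transcript need not change.

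Libraries of the 12 h group held 17103712 to 24951154 counts and those of the 24 h group 12007410 to 23019777. The 6 vitellogenin (yolk protein) genes took 75.7% ± 1.43 (SD, n = 4) of these at 12 h and 78.7% ± 1.02 (SD, n = 4) at 24 h (exact permutation test, two-sided, p = 0.0571, adjusted p = 0.533 over 28 library measures, with 0.0286 the smallest p that 4 against 4 libraries allow). The tissue label was met: all 13 intestinal markers were tested and their sum was 60954 to 71163 ppm (counts per 1000000 counts outside vitellogenin genes) at 12 h and 67413 to 70593 at 24 h. Germline and oocyte markers summed to 18.02 to 25.4 ppm at 12 h and 15.5 to 217 at 24 h, the last in replicate 3, with 5 of 23 at 0 in all 8 libraries (egg-2, htp-3, mex-5, pgl-3 and syp-1). The Pol I-AID libraries at 0 h, used for the 0 to 12 h step below, held 29.7, 40.6, 31.8 and 951 ppm in replicates 1 to 4. Of 24 tested markers of germline, sperm, body wall muscle, hypodermis and pharynx, edgeR and DESeq2 each called 0, with 3 at an unadjusted p below 0.05. The 7 somatic gonad markers were not tested gene by gene. Their sum rose from 0.485 ± 0.484 to 2.21 ± 1.47 ppm (SD, n = 4), with every 24 h library above every 12 h library. The exact permutation test gave p = 0.0286 (adjusted p = 0.533 over 28 library measures). Their most abundant member had a median of 3 counts per library, so these sums lie near the lower limit of counting. The neuronal gene unc-13 rose from 1.38 to 3.85 CPM and the coelomocyte gene cup-4 from 1.97 to 4.22 CPM (means of 4 libraries). The neuronal markers together summed to 46.4 to 63.8 ppm at 12 h and 34.8 to 68.5 at 24 h, with 5 of 16 at 0 in all 8 libraries (egl-3, flp-1, flp-8, nlp-8 and ric-4). The 4 coelomocyte markers summed to 6.39 to 14.8 and then 14.8 to 23.3 ppm, with 0 of 4 absent from all libraries. The part of these cells in the results below was not tested. In bulk tissue, fewer cells of a type and less RNA per cell cannot be told apart. The rpoa-2 transcript stood at 1.09, 1.64, 1.39 and 1.204 CPM at 12 h and at 0.731, 1.33, 1.24 and 0.943 CPM at 24 h, a log2 difference of -0.31 ± 0.56 (SE) with adjusted p = 0.825. CPM is counts per 1000000 on library sizes scaled by TMM, here and below, and values per library are given in the order of replicates 1 to 4.

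Between 12 and 24 h the genes that fell included enzymes for elongating fatty acids, for phospholipid synthesis and for NADPH supply and parts of the machinery for protein entry into the ER. Those that rose included C-type lectins, detoxification enzymes and transporters and a few stress-related transcription factors. Of 6903 genes tested, 179 rose (2.59%) and 138 fell (2.0%), where a gene was called when the Benjamini-Hochberg adjusted p of edgeR's quasi-likelihood test was below 0.05 and the change at least 2-fold. These shares over all genes are the background for the counts of called genes in each list and pathway below. The 7 pathways were drawn up after the values were seen, so for them the shares give a scale and no test. The lists were chosen with earlier results of these data known. At an adjusted p below 0.05 without a fold limit, 337 were higher and 285 lower. The median log2 change was 1.5 in the genes that rose and -1.39 in those that fell, and 0.00 over all genes tested. In TIR1 88.8% of the genes that rose and 87% of those that fell changed in the same direction, beside 48.3% and 51.7% of all genes. Of the 179 and 138 genes, 6 and 14 passed the interaction of strain and time described below. The 4 libraries at 24 h lay wholly above or below the 4 at 12 h in 174 of the 179 and in 121 of the 138, against 9.66% and 7.29% of all genes. Leaving out replicate 2 from every group left 117 genes higher and 96 lower. Without the 24 h library of replicate 3, which held the highest germline signal among the libraries compared, the counts were 158 higher and 123 lower.

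**Figure D1:**
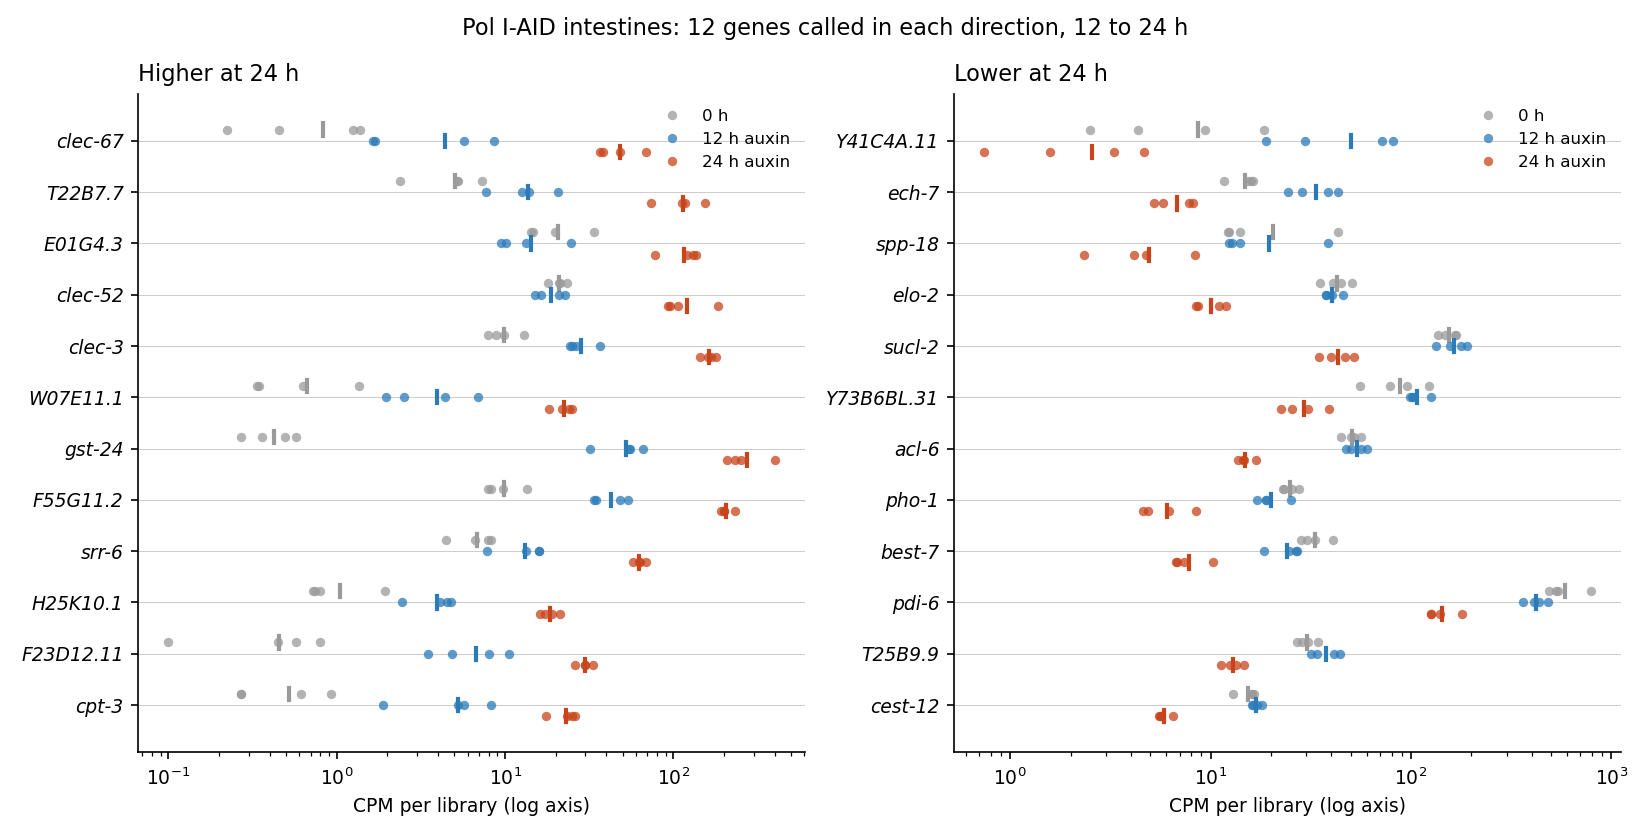
CPM of the 12 genes with the largest rise and the 12 with the largest fall between 12 and 24 h in Pol I-AID, among genes of at least 10 CPM on average whose groups do not overlap. Each point is a library, colours are the times, the axis is logarithmic, and bars are group means. The 0 h library of F23D12.11 with no count is drawn as the leftmost point of its row. The call of this gene (edgeR adjusted p = 0.0484) was lost in 14 of 22 other ways of computing it, DESeq2 among them. F23D12.11 also rose in TIR1 (log2 change 3.56, edgeR adjusted p = 0.00927). In every gene shown the 24 h points stand apart from the 12 h points, and for Y41C4A.11 and ech-7 the 12 h points lie to the right of those at both other times.

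Genes of the fatty acid elongation cycle fell at each of its chemical steps. Elongases add carbons to a fatty acyl chain in 4 chemical steps, condensation, reduction, dehydration and a further reduction. elo-2, a condensing elongase, held 37.5, 40.3, 37.7 and 46.0 CPM at 12 h and 8.65, 8.48, 11.9 and 11.04 CPM at 24 h. The groups did not overlap, the log2 change was -2.01 ± 0.16 (SE, adjusted p = 1.06e-08), and the 0 h level had been 42.8 ± 6.51 CPM (SD, n = 4). elo-5, an elongase needed for branched-chain fatty acids, held 642, 982, 871 and 1118 CPM and then 328.7, 331, 351 and 390.5 CPM. Every 24 h library was thus below the lowest 12 h library, at a log2 change of -1.37 ± 0.16 (SE, adjusted p = 2.07e-06). Its relative elo-6 changed by -1.05 (adjusted p = 0.000796) on the log2 scale. The ketoacyl reductase gene let-767 held 57.1, 70.2, 65.1 and 69.8 CPM and then 26.1, 23.9, 27.2 and 36.3 CPM (log2 change -1.21, adjusted p = 1.61e-06). The dehydratase gene hpo-8 varied more, with 11.9, 16.6, 21.4 and 32.4 CPM and then 5.18, 7.42, 12.3 and 10.1 CPM, so that its groups overlapped (log2 change -1.24, adjusted p = 0.00451). The enoyl reductase gene art-1 went from 30.2 ± 4.43 to 12.1 ± 2.17 CPM (SD, n = 4, log2 change -1.32, adjusted p = 2.07e-06). Of 8 cycle genes tested 6 fell (beside 2.0% over all genes), and the median log2 change of the 8 was -1.22. The cycle was drawn up as a group after its values were seen, so setting 6 of 8 beside 2.0% is no test. elo-1 passed the adjusted p at a change of less than 2-fold (-0.76, adjusted p = 0.000216), and elo-3 was the member with a positive value (0.30).

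The 7 desaturases, which place double bonds, did not move as a block, with a median of 0.00. The delta-9 desaturase fat-7 held 30.9, 31.5, 24.4 and 34.4 CPM at 0 h, 86.3, 86.7, 83.5 and 104.3 CPM at 12 h and 43.8, 38.5, 38.9 and 30.9 CPM at 24 h. It had risen by 12 h and fell again (log2 change 12 to 24 h -1.25 ± 0.16, SE, adjusted p = 4.97e-06), to a level that overlapped that at 0 h. fat-6, of the same activity, went from 116 ± 8.37 to 59.5 ± 2.43 CPM (SD, n = 4), a log2 change of -0.96 that passed the adjusted p (4.77e-06) and missed the fold limit. acly-1, an ATP citrate lyase that supplies cytosolic acetyl-CoA, behaved like fat-7 and went from 16.2 ± 5.89 to 41.6 ± 14.8 and then 19.7 ± 2.74 CPM (SD, n = 4). Its 12 h level was lowest in replicate 1 (22.4 CPM), just under the 22.5 CPM of replicate 1 at 24 h. Over the broader list of fatty acid synthesis and desaturation genes, 8 of 21 tested fell and the median was -0.94.

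The choline branch of phosphatidylcholine synthesis, which activates choline in successive steps by a kinase, a transferase of cytidyl groups and a phosphotransferase, had a gene that fell at each of these steps. pcyt-1, for the middle step, held 7.61, 6.64, 7.15 and 10.6 CPM at 12 h and 2.68, 2.23, 3.34 and 1.98 CPM at 24 h. These ranges did not meet, and the log2 change was -1.64 ± 0.20 (SE, adjusted p = 4.48e-06). The phosphotransferase gene cept-1 held 6.81, 6.11, 4.32 and 6.72 CPM and then 2.56, 2.49, 2.94 and 1.32 CPM (log2 change -1.34, adjusted p = 0.00103). The choline kinase gene ckb-2 had already fallen by 12 h (1.18 ± 0.376 CPM, SD, n = 4, from 7.24 ± 3.76 CPM at 0 h) and reached 0.156 ± 0.169 CPM (SD, n = 4) at 24 h, with no count in replicate 4. Of 11 genes tested in the pathway 4 fell, with mboa-6 the other member, and the median was -0.43. acl-6, an acyltransferase that starts glycerolipid synthesis, went from 50.1, 60.7, 47.6 and 56.6 CPM to 14.4, 14.6, 16.8 and 13.7 CPM, with a log2 change of -1.85 ± 0.16 (SE, adjusted p = 1.85e-08). The 24 h values of acl-6 were close together and all below the lowest 12 h library. fitm-2, which helps lipid droplets form, and sptl-2, a subunit of the enzyme that starts sphingolipid synthesis, also fell (log2 change -1.49 and -1.26). Of 21 tested genes for glycerolipid and sphingolipid acylation, 5 fell (median -0.68).

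The pentose phosphate pathway and cytosolic NADPH genes showed the lowest median of these groups, -1.23 over 9 genes, of which 5 fell. T25B9.9, a 6-phosphogluconate dehydrogenase, held 31.6, 44.1, 33.8 and 41.4 CPM and then 11.3, 12.6, 13.4 and 14.6 CPM. No 24 h library reached the 12 h range, and the log2 change was -1.54 ± 0.16 (SE, adjusted p = 2.49e-07). The transketolase gene tkt-1 held 132, 183, 147 and 155 CPM and then 47.4, 53.4, 61.96 and 55.4 CPM (log2 change -1.5, adjusted p = 3.27e-07). gspd-1, the glucose-6-phosphate dehydrogenase that opens the pathway, was at 6.52 ± 1.60 and then 1.99 ± 0.572 CPM (SD, n = 4, log2 change -1.72, adjusted p = 0.000259). tald-1 (transaldolase) and idh-1 (cytosolic isocitrate dehydrogenase) fell by 1.41 and 1.23 on the log2 scale. Neighbouring enzymes of carbon metabolism fell as well. gpi-1, which interconverts the hexose phosphates, changed by -1.26, the cytosolic aconitase aco-1 by -1.40 and the succinyl-CoA ligase subunit sucl-2 by -1.92, from 165 ± 25.1 to 43.4 ± 7.63 CPM (SD, n = 4). In the list of glycolysis, TCA and glyoxylate genes, 7 of 45 tested fell (15.6%, beside 2.0% over all genes), 11 lay above 0 and the median was -0.35. In the 5 pathways and lists above for elongation, phosphatidylcholine synthesis, acylation, NADPH and carbon metabolism, edgeR and DESeq2 each made 0 higher calls, while 0, 0, 4, 0 and 1 genes were higher at an unadjusted p below 0.05. All but the carbon metabolism list were drawn up after the values were seen, so the lack of higher calls in them is no test. The respiratory chain and ATP synthase list held 1 call (cox-15, lower) among 60 genes (1.67%, beside 2.0% over all genes), with a median of -0.35, 7 genes above 0 and 11 lower at an unadjusted p below 0.05.

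Some secretory genes had begun to fall before 12 h. Of the genes for protein entry into the ER 3 of 19 had fallen by 12 h, and of those for transport between ER and Golgi 2 of 23, beside 2.42% of all genes. sec-61.A, the channel through which new proteins enter the ER, held 10010.3, 9692, 7453 and 8238 CPM at 0 h, 1857, 2968, 2479 and 2262 CPM at 12 h and 921, 1173, 1209 and 1083 CPM at 24 h. Each step lowered all 4 libraries below the previous range, by -1.89 (adjusted p = 7.05e-09) and then -1.13 ± 0.15 (SE, adjusted p = 7.07e-06). In TIR1 sec-61.A fell as well, by -0.51 (adjusted p = 0.0381) and then -0.64 (adjusted p = 0.0146), both under the fold limit. The difference between the strains in the later step did not pass the interaction (-0.49, adjusted p = 0.391). trap-1, a translocon-associated protein, went from 102 ± 14.1 to 22.2 ± 6.26 and 9.50 ± 1.69 CPM (SD, n = 4). The disulfide isomerase gene pdi-2 followed with 1879 ± 402, 817 ± 54.6 and 356 ± 25.1 CPM (SD, n = 4), and changed between 12 and 24 h by -1.20 (adjusted p = 2.65e-07). Another isomerase, pdi-6, fell later, from 361, 481, 437 and 412 CPM at 12 h to 127, 180.5, 140.3 and 126 CPM at 24 h (log2 change -1.56, adjusted p = 5e-08). crt-1, the ER chaperone calreticulin, fell with them (-1.22). Of 19 genes for protein entry into the ER 5 fell, all 19 lay below 0 and the median was -0.64. Of 23 genes for transport between ER and Golgi 5 fell, among them the GTPase sar-1 (-1.19) and the cargo receptor ile-1 (-1.04), and the median was -0.51. The ER folding list gave 4 lower calls of 19 (21.1%, beside 2.0% over all genes) and a median of -0.81 and includes ckb-2, the choline kinase described above rather than a chaperone. In TIR1 the same list gave 3 lower calls and a median of -0.53 over this interval. For protein entry and for transport between ER and Golgi the TIR1 medians were -0.25 and -0.36, with 0 lower calls there. Neither group held a gene called lower in the interaction. All 7 pathway memberships used so far, apart from the lists named as lists, were drawn up after the values were seen, so their counts describe the members and no more. The lists in turn were chosen with earlier results of these data known.

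Proteases of the lysosome and gut lumen separated into several courses. cpr-5, a cathepsin B-like protease, fell at both steps, with 21475 ± 1778 CPM at 0 h, 8194 ± 590 CPM at 12 h and 4053 ± 329.4 CPM at 24 h (SD, n = 4). Its relative cpr-1 fell from 5912 ± 634 to 1810 ± 71.5 CPM and then stood at 1647 ± 215 CPM (SD, n = 4), where the 95% interval of the 12 to 24 h log2 change was -0.46 to 0.19. cpr-4 had also fallen by 12 h and stood at 1738, 2262, 2159 and 2065 CPM, then at 4052, 3140.4, 3954 and 4237 CPM, a log2 difference of 0.90 (adjusted p = 0.00168) below the fold limit. asp-14, an aspartic protease, rose late, from 169, 119.9, 153 and 142 CPM to 548, 443, 467 and 524 CPM (log2 change 1.76 ± 0.15, SE, adjusted p = 1.85e-08). Of 21 genes in the list, 1 rose and 2 fell.

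C-type lectins, carbohydrate-binding proteins many of which respond to microbes, gave 10 calls among 67 genes tested, all higher (14.9%, beside 2.59% over all genes), with a median of 0.50 and 53 of 67 above 0. clec-52 held 20.97, 16.3, 22.6 and 15.04 CPM at 12 h and 183, 93.2, 107 and 95.7 CPM at 24 h. Its 0 h level was 20.8 ± 2.21 CPM (SD, n = 4), and it rose after 12 h by 2.68 ± 0.25 (SE, adjusted p = 6.05e-08) on the log2 scale, highest in replicate 1. clec-3 rose at both steps, with 26.4, 25.01, 36.7 and 24.2 CPM and then 168, 161, 143 and 179 CPM (log2 change 2.54 ± 0.20, SE, adjusted p = 1.06e-08). clec-67 rose from 8.61, 1.64, 5.66 and 1.68 CPM to 68.5, 36.8, 48.2 and 38.2 CPM (log2 change 3.45, adjusted p = 2.29e-05), with replicates 1 and 3 the higher at both times. The other lectins called were clec-2, clec-55, clec-68, clec-85, clec-143, clec-169 and clec-227. In TIR1 the lectin list gave 3 higher and 0 lower calls over this interval, with a median of 0.35. Among the lectins only clec-52 passed the interaction of strain and time. The lysozyme list, another family of antimicrobial proteins, held 0 calls among 13 genes with either edgeR or DESeq2, and 6 higher and 1 lower at an unadjusted p below 0.05. Among dod and dct genes, named for being under the control of daf-16, the FOXO factor of the insulin pathway, 3 of 14 tested rose (21.4%). These were dod-24, dod-17 and dod-22, the last lost in 9 of 22 other ways of computing it. In TIR1 3 of the list were called higher too, with a median of 0.92 beside 0.38 in Pol I-AID. There dod-17 changed by 1.84 (adjusted p = 8.42e-05) and dod-22 by 1.59 (adjusted p = 0.0639, not called).

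Several detoxification genes continued to climb. gst-24, a glutathione S-transferase, held 0.574, 0.269, 0.490 and 0.362 CPM at 0 h, 54.2, 32.03, 66.2 and 55.1 CPM at 12 h and 401, 209, 252 and 231 CPM at 24 h. The 3 times did not overlap, and the later step was 2.4 ± 0.52 (SE, adjusted p = 0.00306) on the log2 scale. pgp-8, an ABC transporter of the P-glycoprotein family, went from 143, 75.5, 89.6 and 53.5 CPM at 12 h to 427, 362, 304 and 313 CPM at 24 h (log2 change 1.96 ± 0.53, SE, adjusted p = 0.0178), having been at 0.728 ± 1.05 CPM (SD, n = 4) at 0 h. The call of pgp-8 was lost in 7 of 22 alternatives. Of 25 ABC transporter genes tested 3 rose (12%, beside 2.59% over all genes). Among them pgp-4 had no count in any 12 h library and lost its call in 7 of 16 alternatives. pgp-3 rose at both steps (6.64 ± 1.20, 22.99 ± 4.47 and 55.2 ± 3.19 CPM, SD, n = 4). UDP-glucuronosyltransferases, which attach sugar to foreign compounds, gave 7 higher and 3 lower calls of 45 (15.6% and 6.67%). ugt-43 went from 15.2 ± 4.11 to 60.3 ± 3.84 CPM (SD, n = 4, log2 change 1.99, adjusted p = 2.11e-06). ugt-15 went the other way and fell at both steps, to 0.572 ± 0.473 CPM (SD, n = 4). Cytochrome P450 genes gave 7 higher calls and 1 lower of 51 (13.7% and 1.96%, beside 2.59% and 2.0% over all genes), with a median of 0.68. cyp-34A8, one of them, held 10.3, 6.97, 6.62 and 4.56 CPM and then 23.3, 28.1, 29.1 and 31.2 CPM (log2 change 1.97, adjusted p = 1.99e-05). Glutathione S-transferases had 2 higher calls of 21 and F-box fbxa genes 6 of 49, with 0 lower calls by either tool, and 0 at an unadjusted p below 0.05, in both. The call of gst-24 was lost in 0 of 22 alternatives and that of gst-33 in 8 of 22. Those of fbxa-163, fbxa-4 and fbxa-19 were lost in 9, 6 and 3 of 22. In TIR1 the P450 list gave 3 higher and 2 lower calls, and the UDP-glucuronosyltransferase list 3 higher and 0 lower. ugt-43 was among those higher in TIR1 (1.43, adjusted p = 0.000755). Glutathione S-transferases gave 1 higher call there, and ABC transporters and fbxa genes 0.

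Among 39 intestinal and stress transcription factors 3 were called, all higher (7.69%, beside 2.59% over all genes). skn-1, the worm counterpart of the NRF oxidative stress factors, held 19.5, 25.6, 23.3 and 22.7 CPM at 0 h, 96.9, 73.8, 82.7 and 66.6 CPM at 12 h and 176, 169, 186 and 200.4 CPM at 24 h. It rose at each step without overlap, by 1.81 and then 1.19 ± 0.23 (SE, adjusted p = 0.00104). In TIR1 skn-1 also rose at each step, by 1.16 (adjusted p = 0.00404) and then 1.26 (adjusted p = 0.00255), and the later steps differed between the strains by -0.07 (adjusted p = 0.977). The bZIP factor zip-10 went from 39.8 ± 6.74 to 123.5 ± 38.8 CPM (SD, n = 4, log2 change 1.64, adjusted p = 0.0179) and crh-1, a CREB homolog, from 7.98 ± 1.32 to 19.4 ± 4.65 CPM (SD, n = 4, log2 change 1.28, adjusted p = 0.000181). The zip-10 call was lost in 4 of 22 alternatives. Nuclear hormone receptors, 134 tested, gave 3 calls, nhr-14, nhr-99 and nhr-105, all higher (2.24%, close to the 2.59% over all genes). In TIR1 this list gave 3 higher calls and 1 lower, with nhr-14 higher (1.07, adjusted p = 0.0168). The iron store ftn-1 (ferritin) rose from 27.6 ± 11.1 to 92.3 ± 20.4 CPM (SD, n = 4, log2 change 1.74, adjusted p = 4e-05) and the asparagine synthetase asns-2 from 546 ± 213 to 1418 ± 89.5 CPM (SD, n = 4, log2 change 1.38, adjusted p = 0.0373). In TIR1 ftn-1 rose as well (1.26, adjusted p = 0.00633), and asns-2 (1.20, adjusted p = 0.125) did not pass. The metallothionein gene mtl-1 had no count at 0 h, 0.663 ± 0.340 CPM at 12 h and 6.26 ± 2.90 CPM (SD, n = 4) at 24 h.

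**Figure D2:**
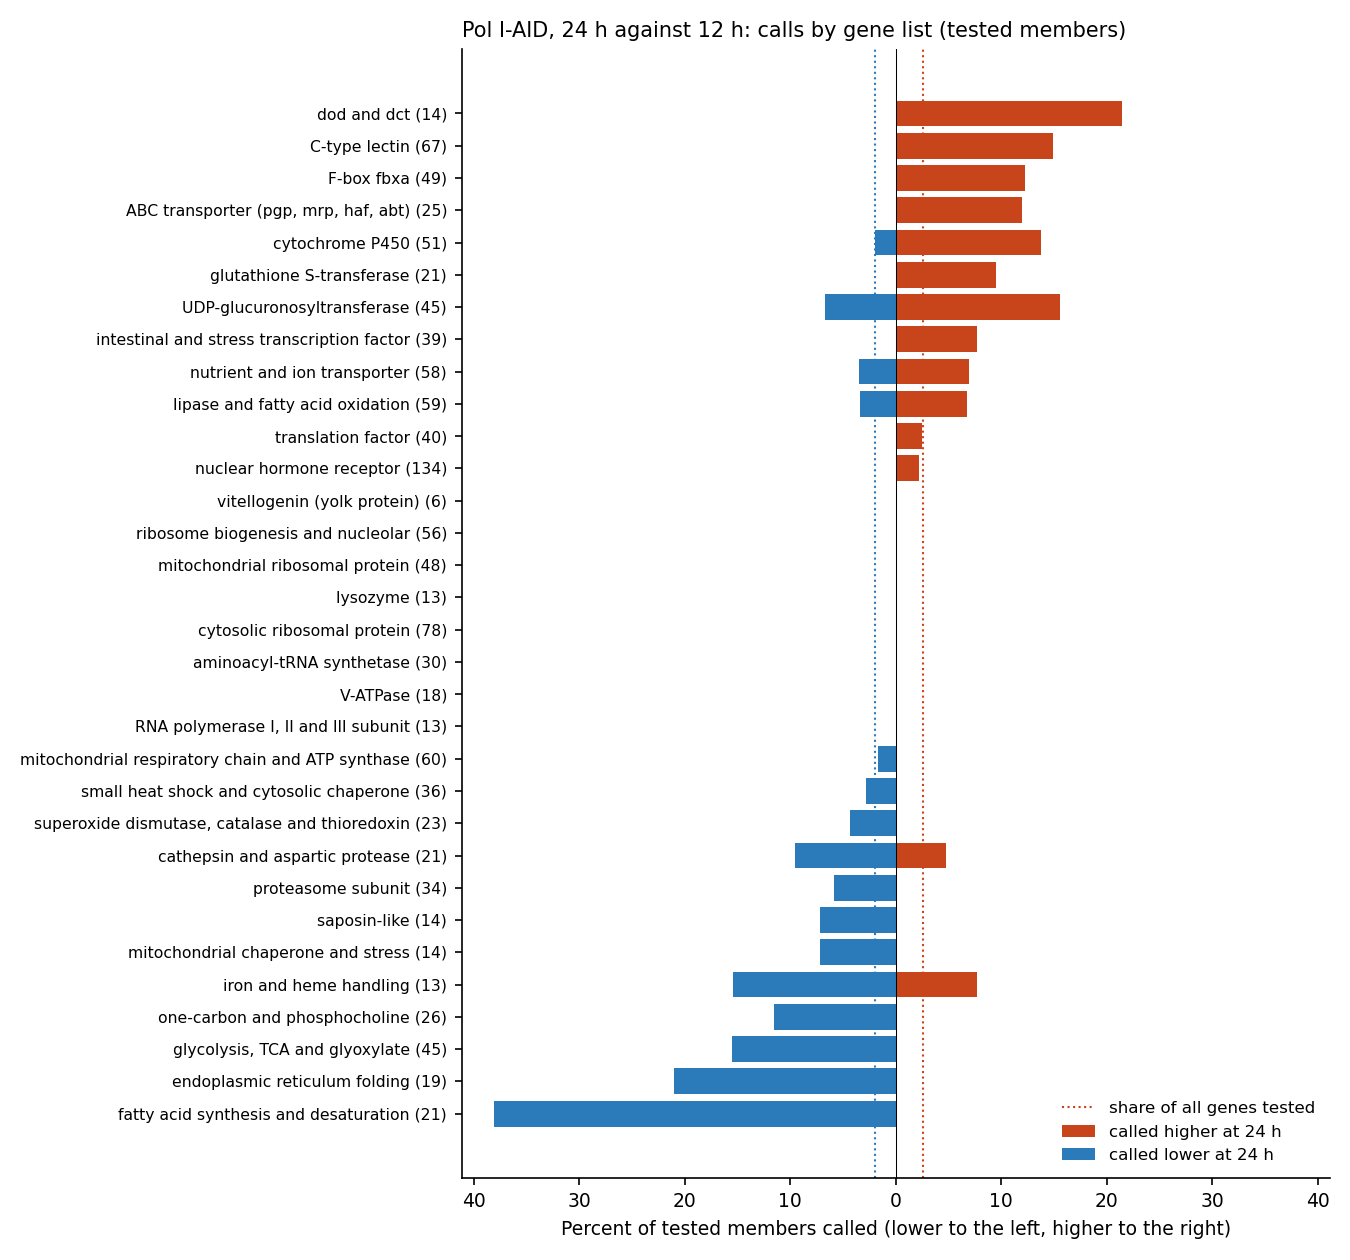
Share of the tested genes of each process list that rose (right) or fell (left) between 12 and 24 h in Pol I-AID, in percent, with the share over all 6903 genes as the dotted lines at 2.59% and 2.0%. Lists of fatty acid synthesis, ER folding and carbon metabolism lie to the left and those of lectins, P450, glucuronosyltransferase and dod genes to the right. Shares in TIR1 are not shown.

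Genes of the ribosome and of translation held almost no call. With edgeR and with DESeq2, 0 of 78 cytosolic ribosomal protein genes, 48 mitochondrial ribosomal protein genes, 56 ribosome biogenesis genes, 13 polymerase subunit genes and 30 aminoacyl-tRNA synthetase genes passed, and 1 of 40 translation factor genes did (iff-1 by edgeR, higher, lost in 8 of 21 alternatives). At an unadjusted p below 0.05 these 5 lists held 2, 3, 6, 0 and 8 genes. The median log2 change of cytosolic ribosomal protein genes was -0.37 in Pol I-AID and 0.76 in TIR1, and for ribosome biogenesis genes it was 0.06 and -0.13. Mitochondrial ribosomal protein genes had medians of -0.48 and -0.07, polymerase subunit genes -0.31 and -0.29, and aminoacyl-tRNA synthetase genes -0.17 and -0.25. Few calls thus do not mean no shift: 7 of 48, 2 of 13 and 9 of 30 genes of these lists were above 0 in Pol I-AID. Genes of short exon length, set against those of long, shifted by 0.33 (mean log2 deviation) from 12 to 24 h in TIR1 and by -0.0066 in Pol I-AID. In TIR1 this measure was highest in 24 h replicates 3 and 4 (0.61 and 0.66). Its part in the medians of these lists was not tested. Proteasome subunits gave 2 lower calls of 34 (pas-3 and rpn-13, 5.88% beside 2.0% over all genes) with a median of -0.45. V-ATPase genes (18 tested), flavin monooxygenase genes (3) and vitellogenin genes (6) held 0 calls with either tool and 1, 1 and 5 at an unadjusted p below 0.05, among them vit-2 and vit-5, which passed the adjusted p at a log2 difference of 0.44 each.

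The remaining lists were mixed. Lipase and fatty acid oxidation genes gave 4 higher and 2 lower calls of 59 (6.78% and 3.39%, beside 2.59% and 2.0% over all genes). The carnitine palmitoyltransferase genes cpt-3 and cpt-6 (log2 change 2.06), fil-1 (1.74) and the acyl-CoA oxidase gene acox-1.5 (1.13) rose, while ech-7 and acox-3 (-1.10) fell. Nutrient and ion transporters also gave 4 and 2 of 58, with the sugar transporter gene swt-1 (3.80) and the phosphate transporter gene pitr-1 (2.22) higher and its relative pitr-5 (-1.96) lower. Iron and heme genes gave 1 and 2 of 13, where ftn-1 rose and aco-1 and hrg-7 fell. A single lower call was made in saposin-like genes (spp-18, high in 12 h replicate 4 and lost in 6 of 22 alternatives, 14 tested), in superoxide dismutase, catalase and thioredoxin genes (trxr-2, lost in 13 of 21 alternatives, 23 tested), in cytosolic chaperone genes (dnj-28, lost in 7 of 18 alternatives, 36 tested) and in mitochondrial chaperone genes (14 tested), where the member called was the ER gene trap-1. The choline and folate list had 3 of 26, which were ckb-2, pcyt-1 and cept-1.

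Each gene that had changed between 0 and 12 h was then followed to 24 h. Of 394 genes that had risen by 12 h (5.71% of those tested), 57 rose again, 112 reached a plateau, 8 fell back and 217 were unresolved, where a plateau required the 95% interval of the 12 to 24 h log2 change to lie between -1 and 1. Of 167 that had fallen by 12 h (2.42%), 13 fell further, 53 reached a plateau, 12 rose back and 89 were unresolved. A further 110 genes rose and 117 fell for the first time after 12 h. Both steps use the same 12 h libraries, so an error in these enters them with opposite sign, and the classes are counts with no test of their own. In the unresolved genes that had risen, 181 of 217 had a 12 to 24 h value above 0 and the median was 0.62. In those that had fallen, 47 of 89 were above 0 and the median was 0.11. A plateau means a later change held within 2-fold and not that change had stopped. Of the 112 risen plateau genes 86 had a later value above 0 (median 0.16), and of the 53 fallen ones 21 (median -0.03). The kept-rising count dropped to 37 without the 12 h library of replicate 3, and the plateau count of risen genes to 69 without the 12 h library of replicate 1.

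**Figure D3:**
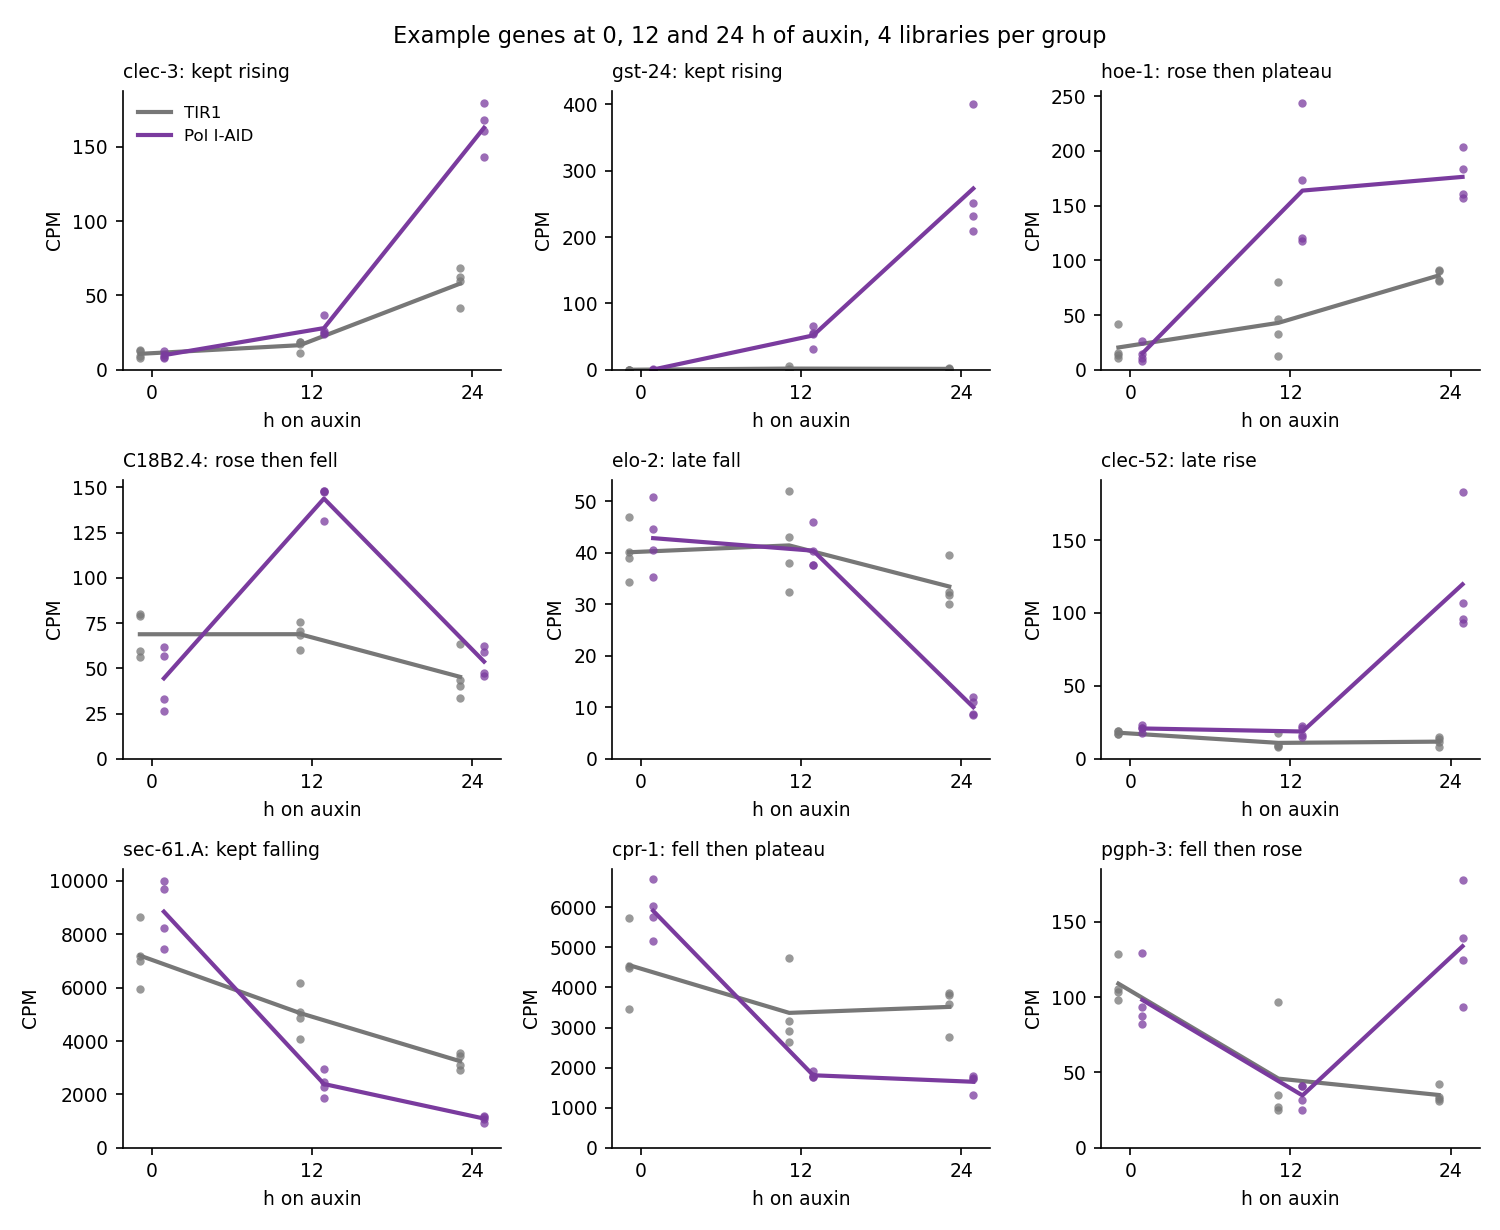
CPM against hours on auxin for 9 genes, each titled with its class in Pol I-AID, where points are libraries, lines join the means of 4 and colours are the strains. clec-3 and gst-24 rose at both steps and sec-61.A fell at both, hoe-1 and cpr-1 levelled off after 12 h, C18B2.4 and pgph-3 turned back, and elo-2 and clec-52 moved after 12 h.

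The genes that kept rising had a median log2 change of 2.14 by 12 h and 1.65 thereafter. In TIR1 the median of these 57 genes between 12 and 24 h was 1.22, 19 of them were called higher there too, and 1 passed the interaction. Besides gst-24, pgp-8, clec-3 and skn-1 they included F35D11.4, which held 1.05 ± 0.413, 80.3 ± 27.2 and 211 ± 54.5 CPM (SD, n = 4), and drd-50, with 4.54 ± 0.814, 133 ± 15.6 and 332 ± 12.1 CPM (SD, n = 4). In TIR1 the 12 to 24 h log2 changes of these genes were 1.57 (adjusted p = 0.0131) and 1.47 (adjusted p = 0.0524). The carnitine palmitoyltransferase gene cpt-3, for entry of fatty acids into mitochondria, went from 5.72, 1.88, 8.22 and 5.26 CPM at 12 h to 17.6, 26.1, 23.3 and 24.8 CPM at 24 h (log2 change 2.12, adjusted p = 0.00202). odc-1, the ornithine decarboxylase of polyamine synthesis, went from 19.9 ± 3.71 to 41.3 ± 4.09 CPM (SD, n = 4). The 13 genes that kept falling were sec-61.A, trap-1, pdi-2, ile-1 and calu-1 (a calumenin homolog) of the secretory pathway, ckb-2 and fitm-2 of lipid synthesis, cpr-5, ugt-15, the phosphate transporter pitr-5, ldb-1, B0303.14 and F23A7.4.

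Plateaus were found among strongly induced genes. hoe-1, an ELAC2-type enzyme of tRNA processing, held 26.01, 8.47, 10.7 and 14.7 CPM at 0 h, 243, 117, 174 and 120.4 CPM at 12 h and 184, 203, 161 and 157 CPM at 24 h. Its later libraries overlapped, with a log2 difference of 0.11 and a 95% interval of -0.73 to 0.95. riok-3, a RIO kinase, stood at 41.0 ± 16.1 and 43.3 ± 3.98 CPM (SD, n = 4, interval -0.65 to 0.81), and ugt-29 at 119.2 ± 35.4 and 149.7 ± 21.3 CPM (SD, n = 4, interval -0.27 to 0.93). By contrast fmo-2, a flavin monooxygenase, had risen from 0.0153 ± 0.0306 to 23.6 ± 4.49 CPM by 12 h and stood at 35.0 ± 4.30 CPM at 24 h (SD, n = 4), where the interval of -0.57 to 1.71 left its later course unresolved.

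Returns were few. Y41C4A.11 showed the largest, with 9.36, 2.51, 4.32 and 18.4 CPM at 0 h, 81.6, 29.6, 71.4 and 18.9 CPM at 12 h and 4.63, 0.742, 1.58 and 3.30 CPM at 24 h. All 24 h libraries were below all 12 h libraries, replicate 4 barely rose at 12 h, and the later log2 change was -4.32 ± 0.77 (SE, adjusted p = 0.000374). ech-7, of the enoyl-CoA hydratase family, went from 14.8 ± 2.15 to 33.7 ± 8.74 and then 6.76 ± 1.49 CPM (SD, n = 4, later log2 change -2.32, adjusted p = 4.45e-08), and was the member of the 8 whose 24 h libraries all lay below those at 0 h. The others were fat-7, acly-1, strl-1, C18B2.3, C18B2.4 and F10D2.10, and in 6 of the 8 the 24 h and 0 h libraries overlapped. In the opposite direction pgph-3, a phosphoglycolate phosphatase homolog, held 93.5, 129, 82.2 and 87.8 CPM at 0 h, 41.1, 31.98, 40.8 and 25.2 CPM at 12 h and 178, 139.6, 125 and 93.3 CPM at 24 h. It had fallen in all 4 replicates by 12 h and rose to a range that overlapped that at 0 h (later log2 change 1.94 ± 0.31, SE, adjusted p = 8.86e-05). Y39B6A.1, an abundant transcript, rose back only in part, with 991 ± 345, 244 ± 44.2 and 499 ± 79.5 CPM (SD, n = 4), and its later call was lost in 11 of 22 alternatives. In 10 of the 12 genes of this class the 24 h and 0 h libraries overlapped.

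The TIR1 control passed through the same interval on auxin, and shares no library with the Pol I-AID comparison. In it 83 genes rose (1.20%) and 31 fell (0.449%) between 12 and 24 h. The TIR1 library of replicate 1 at 24 h held 4675665 counts, and without it 93 rose and 29 fell. The counts of higher genes fell to 52, 54 and 42 without the 12 h library of replicate 2 and the 24 h libraries of replicates 3 and 4, and those of lower genes to 19 and 16 without the 12 h library of replicate 4 and the 24 h library of replicate 3. Leaving out replicate 3 from every group left 26 and 13. Shared calls numbered 31 among the higher genes, which is 17.3% of the Pol I-AID calls and 37.3% of the TIR1 calls, and 12 among the lower genes, 8.7% and 38.7%. Of the 179 genes that rose in Pol I-AID, 159 had a positive change in TIR1 (88.8%, beside 48.3% of all genes), and of the 138 that fell, 120 had a negative one (87%, beside 51.7%). The medians of these genes in TIR1 were 0.69 and -0.48, and since the genes were chosen by their Pol I-AID change these are no test of a difference in size. T22B7.7 rose in both strains, to 114 ± 33.3 CPM from 13.7 ± 5.38 CPM in Pol I-AID and to 116 ± 43.3 CPM from 4.54 ± 2.92 CPM in TIR1 (SD, n = 4). asp-14 and F55G11.2 likewise rose in TIR1, by 1.60 and 2.30 on the log2 scale. pdi-2 fell in both (-1.20 and -1.06), as did ckb-2 (-2.75 and -2.90).

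**Figure D4:**
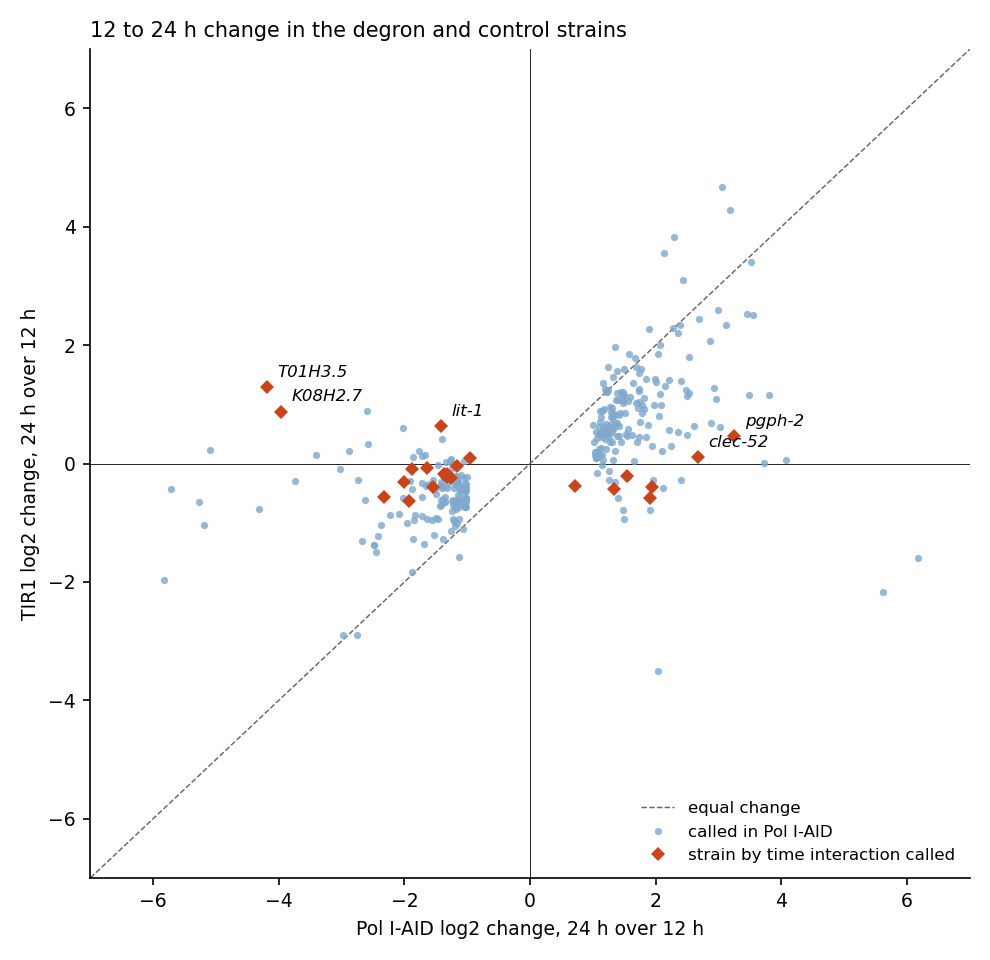
Log2 change from 12 to 24 h in Pol I-AID (horizontal) against TIR1 (vertical), with a point for each gene called in Pol I-AID and a diamond for each of the 22 genes called in the interaction test, beside the dashed line of equal change. Most points lie on the same side of 0 in both strains, and diamonds such as clec-52 and lit-1 lie near 0 or on the other side in TIR1.

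The interaction of strain and time asked which changes differed between the strains, and 22 genes passed, 7 more positive in Pol I-AID (0.101%) and 15 more negative (0.217%). At an unadjusted p below 0.05 there were 728, and DESeq2 called 18 and 34. The lower set included enzymes described above: elo-2 (-1.70 ± 0.23, SE, adjusted p = 0.000283), elo-5 (-1.19), art-1 (-1.09), fat-6 (-1.06), pcyt-1 (-1.55), sucl-2 (-1.29), gpi-1 (-1.01) and T25B9.9 (-1.15). In TIR1, elo-2 held 32.4, 52.03, 38.1 and 43.1 CPM at 12 h and 39.5, 31.9, 32.4 and 30.01 CPM at 24 h, ranges that overlapped and that lay above the Pol I-AID libraries at 24 h. pcyt-1 was at 10.4 ± 1.53 and 9.86 ± 1.20 CPM in TIR1 (SD, n = 4). ech-7 (-1.76), the aquaglyceroporin gene aqp-1 (-1.12), F41H10.3 (-1.15), Y73B6BL.31 (-1.78) and the Nemo-like kinase lit-1 (-2.06) also passed. lit-1 moved apart in the strains, from 7.06 ± 2.03 to 2.59 ± 0.954 CPM in Pol I-AID and from 11.9 ± 4.46 to 18.6 ± 4.57 CPM in TIR1 (SD, n = 4), of which only the change in Pol I-AID passed the test. K08H2.7 and T01H3.5, the remaining members of the set, were close to the lower limit of counting, with at most 1 count in any Pol I-AID library at 24 h and means of 0.597 and 0.404 CPM at 12 h. The interaction calls of gpi-1 and T01H3.5 were lost in 16 of 28 and 16 of 25 alternatives, both with replicate number as a block among them. aco-1 and tkt-1 passed the adjusted p of the interaction at differences of less than 2-fold (-0.99 and -0.98).

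Among the more positive genes clec-52 had the smallest adjusted p, with 7.96, 8.46, 9.47 and 17.8 CPM at 12 h and 11.2, 13.3, 14.8 and 7.80 CPM at 24 h in TIR1 and an interaction of 2.57 ± 0.34 (SE, adjusted p = 0.000283). The carboxylesterase cest-13 held 10.5 ± 1.53 and 39.1 ± 10.1 CPM in Pol I-AID and 13.7 ± 3.24 and 9.13 ± 0.953 CPM in TIR1 (SD, n = 4, interaction 2.48, adjusted p = 0.000468). pgph-3 and pgph-2 (2.34 and 2.79), srdh-1 (1.76), cyp-13A4 (1.76) and rnf-145 (1.10) were the others, of which pgph-2 lost the call in 13 of 27 alternatives and rnf-145 in 14 of 28, the replicate block among them in both. gst-24, at 1.89 ± 2.68 and 1.46 ± 0.704 CPM in TIR1 (SD, n = 4), did not pass (interaction 2.67 ± 0.81, SE, adjusted p = 0.175), and the difference for pgp-8 did not either (adjusted p = 0.52). The calls rest on few libraries: without replicate 2 in every group only 2 genes were called as more positive in Pol I-AID, without replicate 3 only 1 was called as more negative, and without replicate 1, the replicate of the less outcrossed strains, the counts were 3 and 7. Without the TIR1 12 h library of replicate 2 the more negative genes numbered 23.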

How the data were processed

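RNA of dissected adult intestines was amplified with a SMART-Seq2 kit and sequenced as read pairs. The authors trimmed adaptors, aligned the reads across splice sites to genome build ce10 with QuasR, counted reads that aligned uniquely over the exons of WS220 genes and deposited raw counts for 20392 genes, the unit used here. Between 70.1% and 82.4% of the counts from 1 to 10 were even, since both mates of a pair are counted, and no molecular identifiers were used, so counts are not independent molecules. Gene symbols were matched for 94.1% of genes, and no coordinates are given because the reference at hand was of another build.

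Of the 20392 genes, 4282 had no count and 6903 passed edgeR's filterByExpr. They were fitted with edgeR 4.0.16 (R 4.3.3) by the quasi-likelihood F-test with TMM scaling, with a mean for each of 6 groups of 4 libraries (24 libraries, 18 residual degrees of freedom). A call required a Benjamini-Hochberg adjusted p below 0.05 over all genes tested and a change of at least 2-fold. Standard errors (SE) are the log2 change over the root of F. The p-values weigh each change against a spread estimated from the biological replicates of all 6 groups and moderated across genes. The Pol I-AID and TIR1 comparisons of 24 h with 12 h, the interaction of strain and time and the 0 to 12 h step came from that fit. The script was tested on simulated data.

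The named genes are, by rule, the 12 called genes of largest change in each direction with at least 10 CPM and no overlap between groups, up to 4 per trajectory class, every gene of the interaction, 2 per direction in TIR1, up to 3 called members of each of 33 process lists, rpoa-2 and the vitellogenins. Other genes, and the 7 pathways, were chosen after their values were seen. The members and lists were chosen with earlier results of these data known. Alternatives tried were DESeq2 1.42.0, RLE scaling, scaling without vitellogenins, 2 other count filters, the adjusted p alone, smaller sets of libraries, a replicate block, offsets for exon length and leaving out replicates or libraries. The alternatives that leave out a Pol I-AID library at 0 h were chosen after seeing the data.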

Additional observations from a re-analysis of the deposited data

Results flagged for a closer look

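Of 128 groups of 4 libraries checked, 8 held a library far from the other 3, and chance gives about 1 in 20. At 12 h in Pol I-AID these were spp-18 in replicate 4 (38.7 CPM), Y73B6BL.31 in replicate 2 (126 CPM), C18B2.4 in replicate 1 (131.6 CPM) and B0205.13 in replicate 4 (23.4 CPM). At 24 h they were clec-52 in replicate 1 (183 CPM), cest-12 in replicate 4 (6.51 CPM), T01H3.5 in replicate 1 (0.0609 CPM, a single count), and the germline and oocyte marker sum in replicate 3 (217 ppm).

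The 12 to 24 h change differed between Pol I-AID and TIR1, by the test of the interaction itself, in 22 genes. The log2 difference between the strains was positive for pgph-2 (2.79), clec-52 (2.57), cest-13 (2.48), pgph-3 (2.34), srdh-1 (1.76), cyp-13A4 (1.76) and rnf-145 (1.10). It was negative for lit-1 (-2.06), Y73B6BL.31 (-1.78), ech-7 (-1.76), elo-2 (-1.70), pcyt-1 (-1.55), sucl-2 (-1.29), elo-5 (-1.19), T25B9.9 (-1.15), F41H10.3 (-1.15), aqp-1 (-1.12), art-1 (-1.09), fat-6 (-1.06) and gpi-1 (-1.01). K08H2.7 and T01H3.5 had fitted values of -4.85 and -5.48, which depend on the prior count since at most 1 count was found in any Pol I-AID library at 24 h.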

How the results depend on the processing

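For the genes named by rule, 2038 values of the Pol I-AID change were recomputed for the 94 genes called, of which 138 lost the call and 0 reversed, and 67 genes lost it under no alternative tried. For the 22 interaction genes 110 of 610 values lost the call, 0 reversed, and 3 genes never lost it. Pol I-AID counts were 210 higher and 151 lower with DESeq2 (169 and 128 of the edgeR calls shared), 185 and 136 with RLE scaling, 167 and 151 with vitellogenins left out of the scaling, where the median over all genes was -0.04, 221 and 151 in a fit of the 8 libraries alone, 199 and 156 in a fit of the 12 Pol I-AID libraries and 216 and 151 with exon length removed. With the adjusted p alone they were 337 and 285, and 89 genes were lower in TIR1. DESeq2 called 130 genes higher in TIR1 and 18 and 34 in the interaction. With no filter on low counts, TIR1 gave 253 and 65 and the interaction 58 and 172, and with at least 10 counts in every library compared 18 genes were lower in TIR1. The cause of these shifts was not tested.

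Among trajectory classes, no filter gave 20 genes that kept falling, 91 that fell to a plateau and 33 that fell then rose. A minimum of 10 counts gave 33 that kept rising and 114 and 39 unresolved after a rise and after a fall, and fewer genes are tested under it. The adjusted p alone gave 102 that kept rising, 213 rising to a plateau, 22 that rose then fell, 51 that kept falling, 243 falling to a plateau, 45 that fell then rose, 190 late rises and 212 late falls.

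Leaving out a replicate or a library gave 117 to 179 higher and 96 to 137 lower genes in Pol I-AID, 26 to 103 and 13 to 30 in TIR1 and 2 to 10 and 1 to 23 in the interaction. The ranges were 29 to 53 for genes that kept rising, 69 to 118 rising to a plateau, 176 to 248 unresolved after a rise, 6 to 8 that rose then fell, 9 to 14 that kept falling, 37 to 61 falling to a plateau, 70 to 101 unresolved after a fall, 6 to 12 that fell then rose, 74 to 120 late rises and 81 to 117 late falls. Leaving out each Pol I-AID library at 0 h, tried after seeing the data, kept all 40 class counts within 1.5 times. Where 1 library of a group of 4 was left out, the fit still shared its spread over all groups.

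Replicate numbers are shared between groups, and with the number as a replicate block 184 genes were higher and 128 lower in Pol I-AID (168 and 118 shared), 100 and 25 in TIR1 and 7 and 14 in the interaction. Of the interaction genes, pgph-2, rnf-145, gpi-1 and T01H3.5 lost the call under the block. Same-numbered Pol I-AID libraries at 12 and 24 h had correlations of 0.0628, 0.0613, 0.0158 and 0.0213 of their deviations from group means, so the numbers were not taken to pair the samples. TIR1 at 24 h has the shallowest of the libraries compared (4675665 counts), which limits what the interaction can show for low genes, and 217 and 89 genes could not be placed as moving or level after 12 h.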
